A study of Homo sapiens with 4 samples.

Results

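The integrated stress response is described here through 30 genes, chosen by symbol from knowledge of the pathway: the kinases and phosphatase subunits that act on the translation factor eIF2, the transcription factor ATF4 with its partners, and genes that ATF4 is known to drive. All 30 had a row among the 30863 genes of the deposited table. The cells were HepG2, an established human liver cancer line that the labels call hepatoblastoma, of wild-type genotype. The AMF group received amentoflavone, a plant biflavonoid, and the DMSO group received the solvent, each for 48 h and each with 2 libraries of poly(A)-selected RNA. The labels conflict on the agent: AMF at 90 µM in the treatment protocol, but Tub B at 80 µM in the series' design. Compound and dose are therefore uncertain, and AMF means the libraries titled so. Whether replicates came from separate cultures is not stated. The p-values then describe the spread among these 4 libraries and no more, and that spread may be technical.

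Cells sense heme shortage, double-stranded RNA, unfolded protein in the endoplasmic reticulum or uncharged tRNA through a set of kinases that all phosphorylate eIF2. Phosphorylated eIF2 slows general translation but favours translation of the ATF4 mRNA, and ATF4 then raises genes for amino acid supply, tRNA charging and, with its target CHOP, growth arrest or death. In liver cells the pathway is known for its response to amino acid shortage and to secretory load. Phosphorylation of eIF2 and translation of ATF4 are not seen in RNA.

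Totals per library ranged from 24226586 to 26966210 reads counted in genes. Levels are given as normalized counts, that is reads divided by a size factor per library, and a change is the mean log2(normalized count + 1) of AMF minus that of DMSO, positive where AMF was higher. The fit was limma's across 23828 genes, with an adjusted p (Benjamini-Hochberg over all of them) of 0.05 as the threshold. Mitochondrially encoded genes took 9.53% and 9.61% of reads in AMF, against 7.73% and 7.69% in DMSO. All 9 liver markers were detected in every library, and no value among them was under 541. AFP, APOA1, APOB, TF, SERPINA1 and TTR fell, by 0.38 (TTR) to 0.97 (TF) on the log2 scale, HNF4A rose by 0.86, and ALB and FGB did not pass. Of the other markers, the sum over 5 fibroblast genes was 8.36 and 11.3 in AMF and 120.0 and 88.3 in DMSO, nearly all of it COL1A1. The sum over 3 endothelial genes, mostly PECAM1, was 318 and 292 in AMF and 159 and 188 in DMSO. COL1A2, COL3A1, DCN and HBB had at most 1 read in any library. The part of mitochondrial reads or of these markers in the results below was not tested. In bulk RNA, fewer cells that express a gene and less RNA per cell cannot be told apart.

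Of the 30 genes, 15 fell, 6 rose and 9 did not pass. Over all genes tested, 16.2% were called lower and 15.6% higher, 31.8% in either direction. Of the members, 27 had a mean of 100 normalized counts or more, and of all genes at that level 31.1% were called lower and 23.6% higher, 54.7% in either direction. The members' share of falls, 15 of 30, lay above both backgrounds, whereas their share of rises, 6 of 30, lay between them. Their median log2 change was -0.21, against 0.04 over all genes tested. For the 27 members at the higher level it was -0.20, against -0.04 over all genes of that level. All 30 met the minimum mean of 1 normalized count, FAM129A through the AMF libraries alone. The largest falls were those of INHBE, TRIB2, DDIT4, DDIT3 and ASNS, and the largest rises those of GDF15, NUPR1, PPP1R15A and GADD45A. Both AMF libraries lay below both DMSO libraries for 17 members and above both for 8, including FAM129A, where 29.7% of all genes tested lay below and 33.8% above (44.6% and 35.4% of those at the higher level). Without AMF replicate 1 or without AMF replicate 2, no member passed, while 12 and 11 of them had an unadjusted p under 0.05. No gene of the whole table passed in those fits either, whereas voom, limma's fit on the recovered reads, called 1379 and 1315 genes and again no member.

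**Figure D1:**
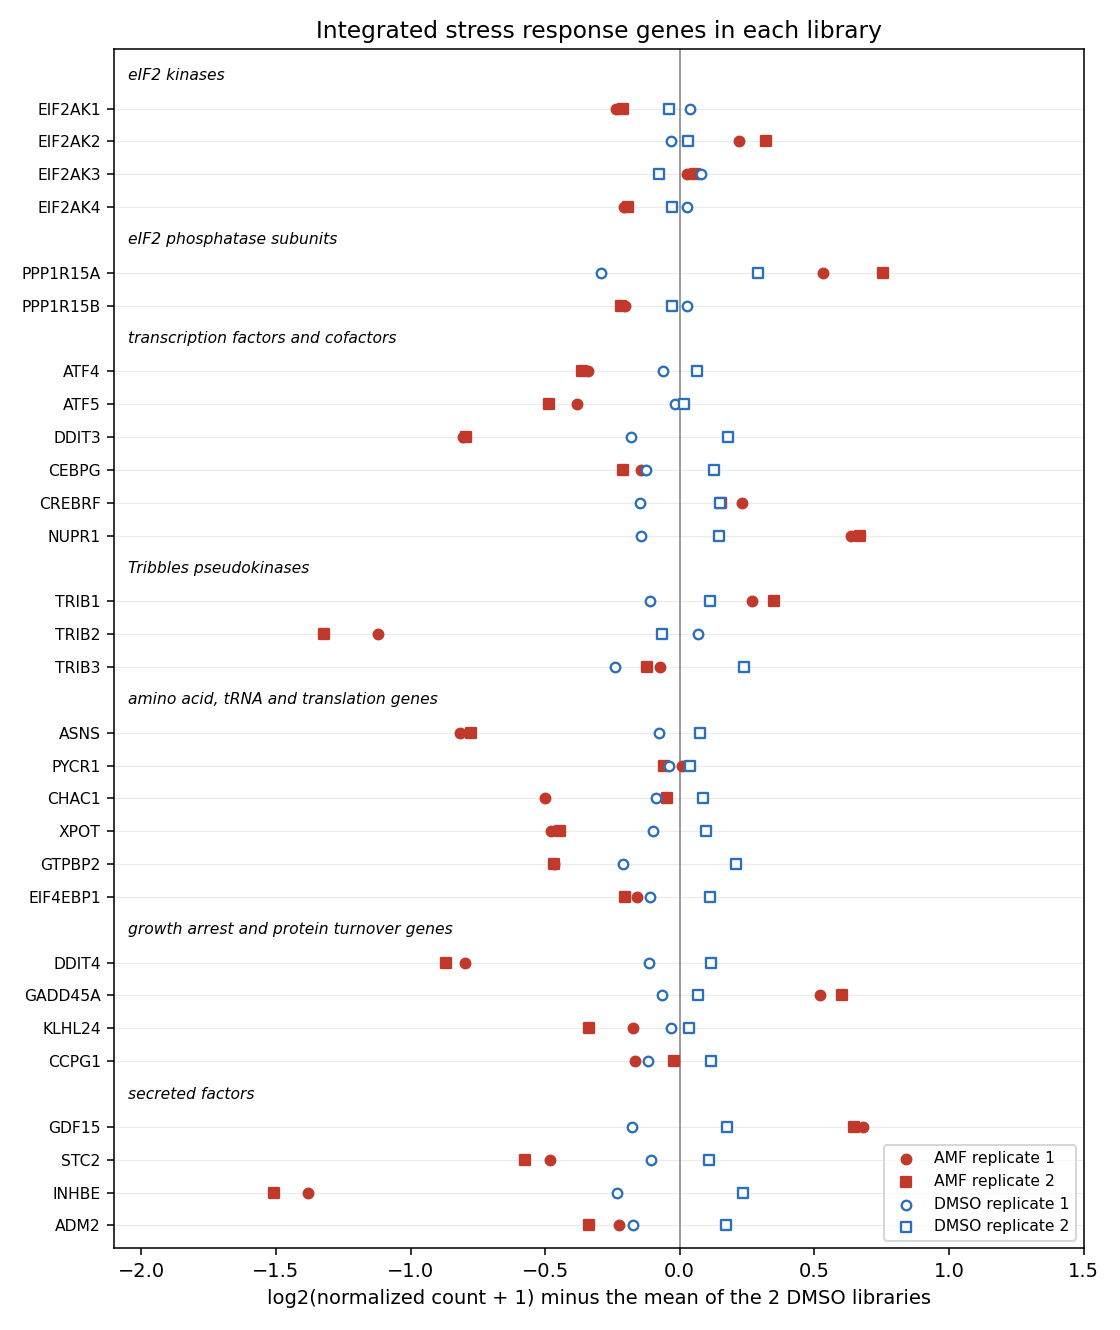
Level of 29 members in each library, as log2(normalized count + 1) minus the mean of the 2 DMSO libraries, grouped by role; FAM129A is left out because it had at most 4 reads in a library. Filled red points are AMF and open blue points DMSO, with circles for replicate 1 and squares for replicate 2, and DMSO replicate 1 lies left of DMSO replicate 2 for 24 genes.

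Among the eIF2 kinases the members moved in both directions. EIF2AK1, which encodes the heme-regulated kinase HRI, had 4533 and 4608 normalized counts in AMF, against 5479 and 5197 in DMSO, a fall of -0.22 (SE 0.0458, adjusted p = 0.00155). EIF2AK4, encoding GCN2, the sensor of uncharged tRNA, had 2866 and 2895 in AMF and 3374 and 3247 in DMSO, a fall of -0.20 (SE 0.0489, adjusted p = 0.00534). EIF2AK2, encoding the double-stranded RNA sensor PKR, rose, with 1849.7 and 1984 in AMF and 1552 and 1623 in DMSO (0.27, SE 0.0594, adjusted p = 0.00255). In these kinases the groups did not overlap, and the changes were small. EIF2AK3, encoding PERK, the kinase of the endoplasmic reticulum, had 706 and 721 in AMF, inside the range of 732 and 656 in DMSO (0.042, SE 0.079, adjusted p = 0.741).

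The subunits that bring protein phosphatase 1 to eIF2 went opposite ways. PPP1R15A encodes GADD34, the subunit that stress induces and that closes the feedback loop, and it rose, with 1562 and 1824 in AMF and 883 and 1322 in DMSO (0.64, SE 0.132, adjusted p = 0.00159). PPP1R15B encodes CReP, the constitutive subunit, and it fell, with 1667 and 1646 in AMF and 1955 and 1879 in DMSO (-0.21, SE 0.0558, adjusted p = 0.00923). The DMSO libraries stood 0.58 (log2) apart for PPP1R15A and 0.06 for PPP1R15B. The AMF libraries of PPP1R15A differed by 0.22 as well. Its rise was 0.93 against DMSO replicate 1 alone and 0.35 against DMSO replicate 2 alone.

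The transcript of ATF4 itself fell. It had 11411 and 11238 normalized counts in AMF, against 13822 and 15087 in DMSO, a change of -0.35 (SE 0.0443, adjusted p = 2.33e-05). ATF5, a related factor whose translation is likewise favoured by phosphorylated eIF2, had 450.4 and 419 in AMF and 581 and 594 in DMSO (-0.43, SE 0.0849, adjusted p = 0.00107). DDIT3, which encodes CHOP, had 209.9 and 211 in AMF and 324 and 416 in DMSO (-0.80, SE 0.126, adjusted p = 0.000171). The AMF libraries of ATF4 and of DDIT3 nearly coincided, and both DMSO libraries lay above them, DMSO replicate 2 more so. In GENCODE, 39.6% of the exon bases of DDIT3 also lie in exons of MARS and other neighbours, and without strand those reads cannot be told apart.

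CEBPG, a dimer partner of ATF4, had 2172 and 2076 in AMF and 2199 and 2619 in DMSO and did not pass (-0.18, SE 0.0712, adjusted p = 0.0762). CREBRF, known as a negative regulator of the CREB3 factor of the secretory pathway, had 242 and 229.7 in AMF, just above the 186 and 229 in DMSO (0.19, SE 0.131, adjusted p = 0.3). NUPR1, a chromatin-bound stress protein, rose and its groups stood apart. It had 946 and 969 in AMF and 551 and 673 in DMSO (0.65, SE 0.0899, adjusted p = 5.24e-05).

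**Figure D2:**
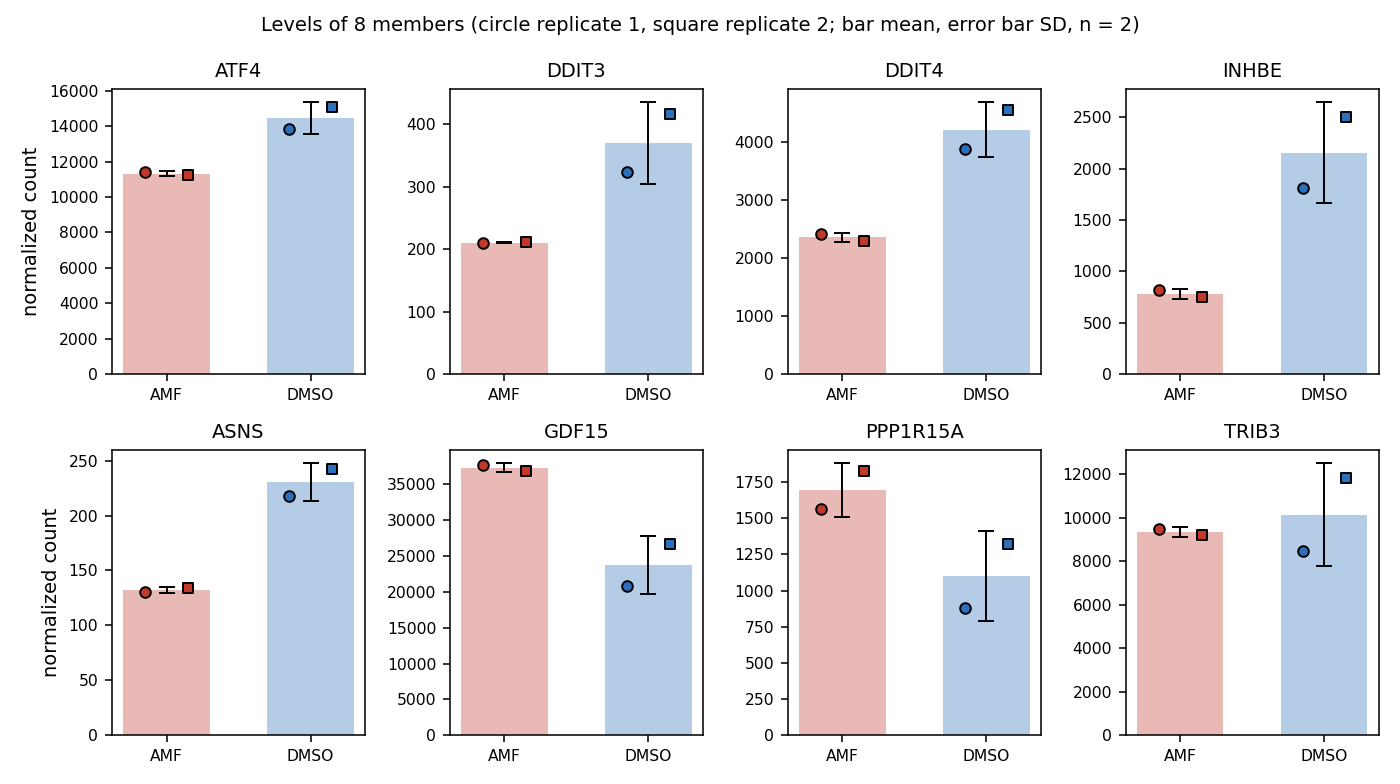
Normalized counts of 8 members in AMF (left) and DMSO (right), with a panel for each gene; bars are means, error bars SD (n = 2), circles replicate 1 and squares replicate 2, on linear axes that start at 0. ATF4, DDIT3, DDIT4, INHBE and ASNS are lower in both AMF libraries, GDF15 and PPP1R15A higher, and TRIB3 has both AMF libraries between the DMSO libraries.

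ATF4 and its C/EBP partners are known to bind a composite element, whose core is searched here as TGATGNAA on either strand (reverse complement TTNCATCA). RefSeq promoters on GRCh38.p14, 250 bases before to 50 after the start of a gene, were given for 23 of the 30 members, and 4 of these, or 17.4%, held a match, against 4.46% of 27305 gene symbols with a promoter. The matches upstream of the start are shown with up to 30 bases on each side, 5′ to 3′ on the strand of the gene and with the matched bases in capitals, because these are the 4 members that hold the core.
ASNS: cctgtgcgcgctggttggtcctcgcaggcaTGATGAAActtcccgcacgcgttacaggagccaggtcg
CHAC1: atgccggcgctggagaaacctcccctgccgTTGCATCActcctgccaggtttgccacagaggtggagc
PPP1R15B: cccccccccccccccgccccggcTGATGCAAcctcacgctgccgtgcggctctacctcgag
CEBPG: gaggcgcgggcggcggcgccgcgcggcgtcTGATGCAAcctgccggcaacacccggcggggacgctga
These windows lie on GRCh38.p14 at chr7:97872439-97872506 (minus strand), chr15:40953232-40953299 (plus), chr1:204412007-204412067 (minus) and chr19:33374041-33374108 (plus), in the order shown. The match begins 68 bases before the start of ASNS, 209 before that of CHAC1, 227 before that of PPP1R15B and 42 before that of CEBPG. ASNS and PPP1R15B fell, whereas CHAC1 and CEBPG did not pass. A match is a description of the letters, and its absence from this window says nothing of the factor.

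Among the Tribbles pseudokinases, scaffold proteins that bring substrates to a ubiquitin ligase or bind signalling kinases, each gene behaved differently. TRIB1, known for the degradation of C/EBP-alpha in the liver, rose, with 2840.5 and 3004 in AMF and 2181 and 2547 in DMSO (0.31, SE 0.0669, adjusted p = 0.00232). TRIB2 was the least abundant of the family, counted per exon length, and fell, with 38.1 and 32.96 in AMF and 88.0 and 80.1 in DMSO (-1.22, SE 0.233, adjusted p = 0.000885). TRIB3, a classic ATF4 target whose protein restrains ATF4, had 9491 and 9183 in AMF, between the 8467 and 11798 in DMSO. Its change of -0.10 (SE 0.099) did not pass, with an adjusted p of 0.502. It was 0.14 against DMSO replicate 1 alone and -0.34 against DMSO replicate 2 alone, so the direction of TRIB3 depended on which DMSO library it was set against. With voom, TRIB3 was called higher without DMSO replicate 2 (adjusted p = 0.00036) and lower without DMSO replicate 1 (adjusted p = 2.39e-24). In those fits the lone DMSO library is assumed to vary like the AMF pair, whose libraries lay close together.

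In the group for amino acids, tRNA and translation, 4 of 6 fell and none rose, where 16.2% of all genes tested and 31.1% of those averaging 100 or more were called lower. ASNS, which makes asparagine from aspartate, had 130.0 and 134 in AMF and 218 and 242 in DMSO (-0.80, SE 0.134, adjusted p = 0.000309). GENCODE places 44.6% of its exon bases in a neighbouring transcript as well. XPOT, the exporter of tRNA from the nucleus, had 5329.9 and 5457 in AMF and 6928 and 7952 in DMSO (-0.46, SE 0.0563, adjusted p = 1.68e-05). GTPBP2, a GTPase linked in mice to the rescue of stalled ribosomes, had 1867 and 1869.7 in AMF and 2233 and 2991 in DMSO (-0.47, SE 0.0951, adjusted p = 0.00146). In these genes the AMF pair was tight and both DMSO libraries were higher.

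EIF4EBP1, which encodes the cap-binding inhibitor 4E-BP1 and is an ATF4 target in pancreatic beta cells of mice, had 2988 and 2895 in AMF and 3085 and 3602 in DMSO. Its fall of -0.18 (SE 0.0642) lay near the threshold, with an adjusted p of 0.0449, and was lost with library totals as scaling (adjusted p = 0.0736). PYCR1, a proline synthesis enzyme, did not pass, and its libraries overlapped, with 7398 and 7054 in AMF and 7151 and 7548 in DMSO (-0.024, SE 0.0448, adjusted p = 0.737). CHAC1, which degrades glutathione and is widely used as a marker of ATF4 activity, was close to absent, with 7 and 9 reads in AMF and 9 and 10 in DMSO. Its change of -0.27 (SE 0.521, adjusted p = 0.743) did not pass, and a small change of CHAC1 would not be seen at this depth.

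Of 5 members tied to growth arrest and protein turnover, DDIT4 fell and GADD45A rose. DDIT4 encodes REDD1, an inhibitor of mTORC1, and had 2417 and 2305 in AMF and 3885 and 4555 in DMSO (-0.83, SE 0.0657, adjusted p = 2.26e-07). Its groups stood far apart, with 41.2% of its exon bases shared with the antisense gene DDIT4-AS1. GADD45A, which is known both as a stress gene and as a p53 target, had 2214 and 2341 in AMF and 1473 and 1615 in DMSO (0.56, SE 0.0613, adjusted p = 5.92e-06). KLHL24, an adaptor of a cullin ubiquitin ligase, had 308 and 275 in AMF and 339.9 and 356 in DMSO and did not pass (-0.26, SE 0.105, adjusted p = 0.0808). CCPG1, a receptor for autophagy of the endoplasmic reticulum, overlapped between groups, with 267 and 296 in AMF and 277 and 325 in DMSO (-0.09, SE 0.116, adjusted p = 0.594). FAM129A, also called Niban, had 4 and 2 reads in AMF and 0 reads in both DMSO libraries, too few for a fold.

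The secreted factors changed in all 4 cases, 3 of them downward, where 54.7% of all genes averaging 100 or more were called in either direction and 31.1% lower. INHBE, the activin E subunit made by liver cells, had the largest fall of the members, with 782 ± 47.6 normalized counts in AMF and 2156 ± 491 in DMSO (SD, n = 2 each). Its libraries had 815 and 748 in AMF and 1808 and 2503 in DMSO, a change of -1.44 (SE 0.11, adjusted p = 1.52e-07). STC2, a stanniocalcin glycoprotein, had 3849.8 and 3607 in AMF and 4990.1 and 5788 in DMSO (-0.53, SE 0.0625, adjusted p = 1.25e-05). ADM2, a peptide hormone of the adrenomedullin family, had 1115 and 1031 in AMF and 1158 and 1469 in DMSO (-0.28, SE 0.0921, adjusted p = 0.0299). For ADM2 the nearer DMSO library stood 0.11 above AMF and the other 0.45.

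GDF15, a circulating stress hormone that acts on the hindbrain and is also a p53 target, moved the other way. It had 37709 and 36874 in AMF and 20828 and 26613 in DMSO, a rise of 0.66 (SE 0.0753, adjusted p = 8.47e-06). Per kilobase of exon in GENCODE release 29, GDF15 had the highest level of the members, with 17868 normalized counts per kb in AMF and 11366 in DMSO. ATF4 came next with 4505 in AMF and 5749.5 in DMSO, and CHAC1 and FAM129A were lowest with 3.83 and 0.345 in AMF and 4.68 and 0 in DMSO.

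The DMSO libraries differed from each other across these genes. DMSO replicate 1 was lower than DMSO replicate 2 for 24 of 30 members and higher for 5, with no reads of FAM129A in either. Among all genes averaging 100 or more, replicate 1 was the lower for 47.6%. Over the 27 members with such a mean the median difference, replicate 1 minus replicate 2, was -0.22 (log2) in DMSO and 0.02 in AMF, where all genes of that level had medians of 0.01 in DMSO and 0.003 in AMF. A difference beyond 0.2 in size was found for 15 of these 27 members in the DMSO pair and for 1, PPP1R15A, in the AMF pair. Among all genes of that level, 14.1% differed so much in the DMSO pair and 9.93% in the AMF pair. Counting error alone, as a 95% exact binomial interval on the reads of both libraries, left 18 of these 27 members below 0 and 2 above, EIF2AK1 and EIF2AK3. Of all genes of that level, 11.8% lay below 0 and 15.7% above by the same interval.

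Roles differed in this respect too. All 6 transcription factors and cofactors, all 6 amino acid, tRNA and translation genes and all 4 secreted factors were lower in DMSO replicate 1, with the widest difference among these groups for INHBE (-0.47). Over all members the widest were those of PPP1R15A (-0.58) and TRIB3 (-0.48). Of the 4 eIF2 kinases, EIF2AK2 was the lone gene lower in replicate 1, by 0.06. Of the 21 members called, 16 changed by more against the nearer DMSO library than the DMSO libraries differed from each other. The other 5 were PPP1R15A, TRIB1, GTPBP2, EIF4EBP1 and ADM2. A DMSO difference widens the spread in the fit, so being called already favours a small one, and the 16 are no separate check. The median change of the members was -0.15 against DMSO replicate 1 alone and -0.29 against DMSO replicate 2 alone. All genes tested had medians of 0.025 and 0.022. The 27 members averaging 100 or more had -0.11 and -0.29, against -0.042 in both cases for all genes of that level. With DMSO replicate 1 left out, EIF2AK1, EIF2AK2, EIF2AK4, PPP1R15A, PPP1R15B, ATF5, TRIB1 and TRIB2 no longer passed, and CEBPG and TRIB3 did. With DMSO replicate 2 left out, EIF2AK2, PPP1R15B, ATF5, TRIB2, ASNS, EIF4EBP1 and ADM2 no longer passed. Fewer genes of the whole table passed in those fits too, so a lost call need not mean a smaller change. Against DMSO replicate 1 alone and DMSO replicate 2 alone, ATF5 changed by -0.42 and -0.45, PPP1R15B by -0.24 and -0.18, and EIF2AK2 by 0.30 and 0.24. Other lost genes did shrink, such as EIF4EBP1, with -0.07 against DMSO replicate 1 alone and -0.29 against DMSO replicate 2 alone. The labels give no batch, day or culture for these libraries.

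**Figure D3:**
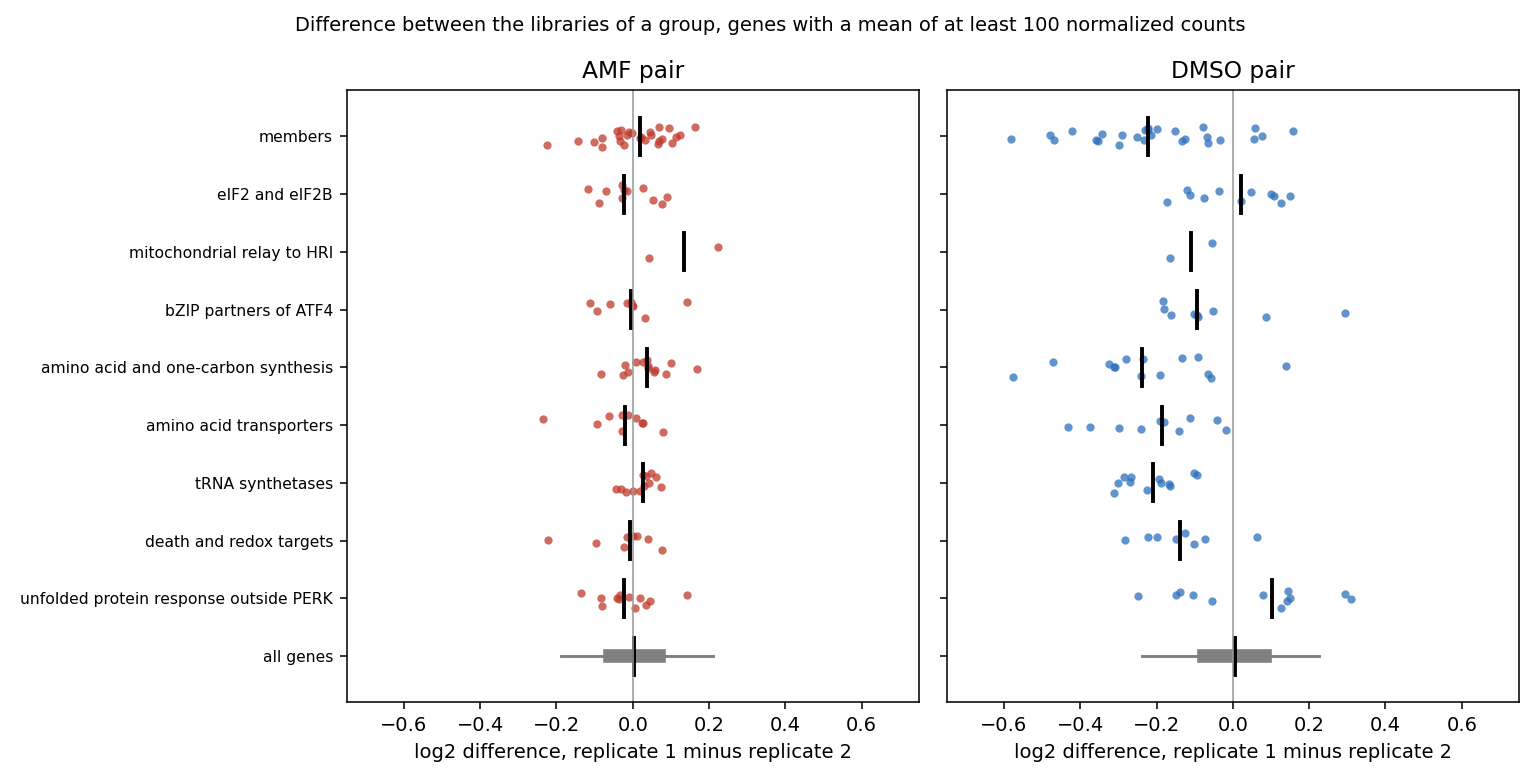
Difference between replicate 1 and replicate 2 (log2) within the AMF pair (left) and within the DMSO pair (right), for members and further pathway genes averaging 100 normalized counts or more; points are genes, black bars medians, and for all 11137 such genes the thick bar spans the 25th to 75th and the thin line the 5th to 95th percentile. In the DMSO pair all 12 tRNA synthetases and all 10 amino acid transporters lie left of 0.

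Further genes of the pathway, in lists drawn up from general knowledge, were read in the same fit. Over 81 such genes in the table, 38 fell, 15 rose and 28 did not pass, with a median change of -0.15. Of these, 78 averaged 100 normalized counts or more, and 47.4% of the 78 were called lower and 17.9% higher, against 31.1% lower and 23.6% higher among all genes of that level. Among the 81 were 11 genes for eIF2, its guanine nucleotide exchange factor eIF2B and related initiation factors. Of these 11, 3 rose, 2 fell and 6 did not pass, a share called near the 54.7% of all genes at that level. EIF2S1, which encodes the phosphorylated alpha subunit of eIF2, rose, with 2805 and 2753 in AMF and 2047 and 1979 in DMSO (0.46, SE 0.0518, adjusted p = 7.14e-06), and the eIF2B subunit EIF2B3 rose by 0.43. The gamma subunit EIF2S3 (-0.26) and the beta subunit EIF2S2 (-0.18) fell, EIF2S2 with an adjusted p of 0.0202 that was 0.0743 with no filter and 0.29 without DMSO replicate 2. The relay that carries mitochondrial stress to HRI split as well, with the protease OMA1 higher (0.47, adjusted p = 0.00838) and its substrate DELE1 lower (-0.47, adjusted p = 3.59e-05).

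Of 11 bZIP factors that can pair or compete with ATF4, 2 rose, 3 fell and 6 did not pass. Of the 9 that averaged 100 or more, 4 were called, a share near the 54.7%. CEBPB, a C/EBP factor of liver metabolism and inflammation, had 2164 in each AMF library, against 3619.7 and 3884 in DMSO (-0.79, SE 0.0522, adjusted p = 3.73e-08). JDP2, a repressor that pairs with such factors, had 151 and 162 in AMF and 475 and 507 in DMSO (-1.64, SE 0.109, adjusted p = 3.81e-08). The immediate early gene FOS rose by 1.40, with 151 and 118 in AMF and 46.0 and 54.4 in DMSO, and BATF2 by 0.41 (adjusted p = 0.037, and 0.0591 with no filter). The DMSO libraries differed by 0.10 for CEBPB and 0.09 for JDP2, less than either gene changed.

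Enzymes that make amino acids and one-carbon units, which ATF4 is known to drive, included 10 of 14 that fell, 1 that rose and 3 that did not pass, with a median of -0.42 and 71.4% lower, against the 31.1%. GPT2, the mitochondrial alanine transaminase, had 6903 and 6772 in AMF and 11751 and 12231 in DMSO (-0.81, SE 0.0408, adjusted p = 2.26e-09), and CBS, which forms cystathionine, fell by 0.77. ALDH1L2, a mitochondrial folate enzyme, was the one that rose (0.46, adjusted p = 0.0451), while its DMSO libraries stood 0.58 apart. Its change was 0.17 without DMSO replicate 1 (adjusted p = 0.34) and 0.74 without DMSO replicate 2 (adjusted p = 0.04), and it did not pass with no filter (adjusted p = 0.119). Of 10 amino acid transporters, 6 fell, 2 rose and 2 did not pass, with 60% lower and 20% higher. All genes averaging 100 or more had 31.1% lower and 23.6% higher. The glycine transporter SLC6A9 had 348 and 329.6 in AMF and 858 and 1157 in DMSO (-1.55, SE 0.114, adjusted p = 1.10e-07) and the cationic amino acid transporter SLC7A1 fell by 0.65. SLC7A5 (0.53, adjusted p = 2.59e-07) and SLC3A2 (0.22, adjusted p = 0.00249), which together form the LAT1 exchanger of large neutral amino acids, rose. Of 12 cytosolic tRNA synthetases, 7 fell, 0 rose and 5 did not pass, with TARS (-0.44) and MARS (-0.37) the largest falls. Their share called in either direction lay near the 54.7% of all genes averaging 100 or more, and 58.3% were lower, against the 31.1%. All 12 synthetases were lower in DMSO replicate 1 than in DMSO replicate 2, with a median difference of -0.21, and their median change in AMF was -0.07 against DMSO replicate 1 and -0.28 against DMSO replicate 2. Among genes with a RefSeq promoter, the core TGATGNAA stood in 7 of 10 synthetases and 4 of 9 transporters. Of those synthetases, CARS, GARS, IARS, MARS, NARS and TARS fell and AARS did not pass. Of those transporters, SLC1A4, SLC1A5 and SLC7A1 fell and SLC3A2 rose. The core stood in 2 of 9 bZIP factors, JDP2, which fell, and ATF3, which did not pass. It stood in 0 of 10 eIF2 and eIF2B genes and in 1 of 9 of the amino acid and one-carbon enzymes, MTHFD1L, which did not pass.

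**Figure D4:**
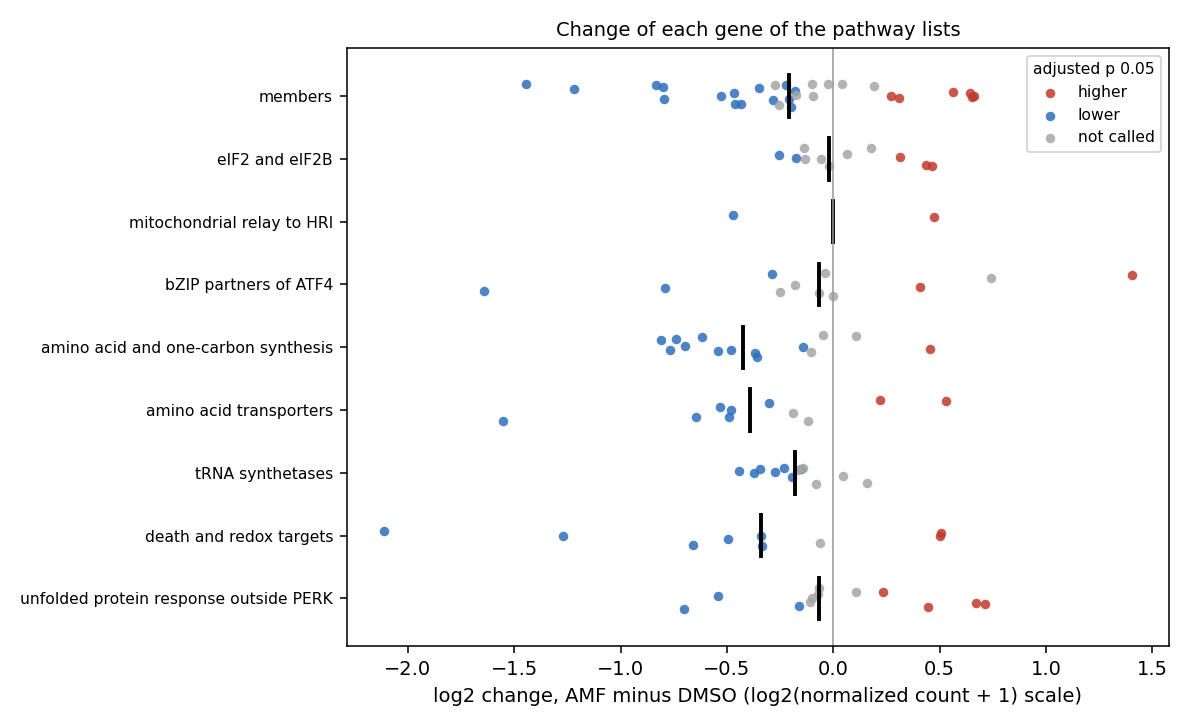
The log2 change of AMF against DMSO for 29 members (without FAM129A) and each further pathway gene, by list; red points are higher and blue points lower at an adjusted p of 0.05, grey points did not pass, and black bars are medians. The enzymes of amino acid and one-carbon synthesis have 10 of 14 points called lower, and the eIF2 and eIF2B genes have 3 called higher and 2 lower.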

How the data were processed

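Libraries were non-directional, per the labels' protocols, and the submitters' processing notes name STAR 2.7.0, featureCounts and hg19. The gene annotation and the normalization steps are not stated in those notes. The authors deposited log2-scale values per gene and library, with 6.0085 as the lowest value in each library. The values behave like a variance-stabilized scale of reads over a size factor, and were inverted to normalized counts and to reads, of which 100% were whole within 0.01. Negative binomial count fits were not run, since the deposited unit is log2, and 0 columns of other samples were present. A read was worth 0.929 to 1.03 normalized counts.

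Tests were limma 3.58.1 in R 4.3.3 (limma-trend on log2(normalized count + 1), a minimum mean of 1 per gene, the group as sole term). The fit was also run on simulated counts with known changes. Those were drawn independently per gene and library, so they hold no shared difference like that between the DMSO libraries. No set test was run. Intervals cover counting error alone, because PCR copies of a molecule cannot be recognised. The members, their grouping and the 8 further lists were chosen with earlier results of these data known, and no pattern here is independent support. All 30 members are named, and from each further list up to 2 rises and 2 falls, the largest that passed with a mean of at least 10. Older symbols were matched by alias (DELE1 stands as KIAA0141 in the table). Exon lengths and overlaps are from GENCODE release 29 on GRCh38, another build than hg19. Exons of 10 of the 30 members overlap those of other genes there: EIF2AK1, EIF2AK2, EIF2AK3, ATF5, DDIT3, ASNS, PYCR1, GTPBP2, DDIT4 and CCPG1. Alternatives were a pseudocount of 0.1, no filter, a mean of at least 10, the deposited values, voom on recovered reads, library totals, each library left out, the replicate block and stricter thresholds. Voom with each library left out was added after seeing the data. Figures were drawn with matplotlib 3.10.9. One marker result is not reported here.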

Additional observations from a re-analysis of the deposited data

How the results depend on the processing

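The count of members past the threshold, 21, was 19 to 22 with a pseudocount of 0.1, no filter, a mean of at least 10, the deposited values, library totals, voom or an adjusted p of 0.01. With a minimum size of 0.5 (log2) in addition it was 10, 6 of them lower, and 21 of the further pathway genes passed in place of 53. The share of all genes past that size is not given here. With one library left out, by limma-trend or voom, the count ranged from 0 to 23, the higher from 0 to 7, the lower from 0 to 17 and the further genes from 0 to 60 (0 to 44 by limma-trend, 7 and 8 by voom without an AMF library). The members' 0 came without AMF replicate 1 or AMF replicate 2, when 12 and 11 members had an unadjusted p under 0.05 with limma-trend and 17 and 16 with voom. Over all genes limma-trend then called 0, with 6575 and 6387 at an unadjusted p under 0.05, and voom 1379 and 1315. Without DMSO replicates 1 and 2, limma-trend called 15 and 14 members, 3 and 5 of them higher, and 12 and 9 lower, and voom 23 and 20. EIF4EBP1 was lost with a pseudocount of 0.1, no filter, the deposited values or library totals (adjusted p 0.0539 to 0.122), and ADM2, EIF2S2, BATF2 and ALDH1L2 with the first of these or no filter (0.0509 to 0.119). CEBPG passed with a mean of at least 10, the replicate block and voom (0.01 to 0.0338). With one library left out, the change changed sign for EIF2AK3 (-0.037 to 0.12), TRIB3 (-0.34 to 0.14), PYCR1 (-0.063 to 0.015, and by voom 0.010 and 0.016) and CCPG1 (-0.21 to 0.022, and by voom 0.019), none of them called with all libraries. Same-numbered samples did not deviate together (correlation 0.0238 over 11137 genes). This cannot show whether they shared a culture, day or preparation, which the labels do not give. With the replicate block 22 members passed, 16 of them lower, and 8157 genes in place of 7578. Depth limits CHAC1 and FAM129A, and no alternative could give them a value with a mean of at least 10.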

Other observations

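The arms of the unfolded protein response that do not run through PERK changed in both directions: of 12 genes, 4 rose, 3 fell and 5 did not pass. These shares lie near the 23.6% called higher and 31.1% called lower among all genes averaging 100 or more. The endoplasmic reticulum co-chaperones SDF2L1 (0.71, adjusted p = 1.04e-05) and DNAJB9 (0.67, adjusted p = 3.96e-05) rose. The stress sensor ERN1 (-0.54, adjusted p = 0.000271) and XBP1, the factor whose mRNA it splices, fell, XBP1 with 10534 and 10392 normalized counts in AMF and 16225 and 17866 in DMSO (-0.70, adjusted p = 2.95e-08). Between the DMSO libraries this list lay the other way from the members, with a median difference of 0.10 (log2, replicate 1 minus replicate 2). SDF2L1 was 0.29 higher and ERN1 0.25 lower in DMSO replicate 1.

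Of 9 targets that CHOP and ATF4 are known to share with other regulators, 2 rose, 6 fell and 1 did not pass. Of the 8 that averaged 100 or more, 62.5% were called lower, against that 31.1%. The angiogenic factor VEGFA, which hypoxia also drives, had 2412 and 2438 in AMF and 5699 and 5999.8 in DMSO (-1.27, adjusted p = 1.44e-10), and the lipoprotein receptor VLDLR fell by 0.66. The autophagy genes SQSTM1 (0.51, adjusted p = 7.08e-07) and MAP1LC3B (0.50, adjusted p = 3.17e-05) rose. The hormone FGF21, singled out after its values were seen because liver cells are known to secrete it under amino acid shortage, had 5 and 1 reads in AMF and 10 and 18 in DMSO (adjusted p = 0.0242).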
